A study of Homo sapiens with 12 samples.

Results

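Cytosolic ribosomal protein genes were examined by RNA-seq in Panc1 and MiaPaCa2, established human lines of pancreatic ductal adenocarcinoma, with and without a knockout of ASAP2, which encodes a GTPase-activating protein for Arf proteins. The members were all gene symbols of the form RPL or RPS plus a number, with an optional ending A, X, L or L1, together with RPLP0, RPLP1, RPLP2 and RPSA, that reached 1 FPKM or more on average across the 12 libraries. FPKM counts fragments relative to transcript length and to all mapped fragments, so that levels can be compared between genes. Of 84 candidate symbols 82 were members, among 22650 symbols in the files: 50 of the large and 32 of the small subunit. The candidates just outside were RPL3L at a mean of 0.0234 FPKM and RPL10L at 0.272, and the lowest member was RPL22L1 at 5.27 FPKM. The 4 groups were wild-type Panc1, ASAP2 knockout Panc1, wild-type MiaPaCa2 and ASAP2 knockout MiaPaCa2, with 3 libraries each and no treatment named. The sources used here do not give how the knockout was made, whether a knockout group is 1 clone, or whether libraries of a group stem from separate cultures. The p-values therefore cover the spread among these libraries alone, which may be technical.

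A ribosome joins a small subunit, which reads the mRNA, to a large subunit, which forms the peptide bond. Apart from the stalk proteins RPLP1 and RPLP2, which sit on RPLP0 as dimers and recruit elongation factors, each core protein is generally present as a single copy per ribosome, and the subunits are assembled in the nucleolus with the help of biogenesis factors. Ribosomal protein mRNAs are among the most abundant of a growing cell. They typically begin with a C followed by an unbroken run of C and T, the terminal oligopyrimidine or TOP motif, through which mTOR signalling controls their translation.

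The first bases of the members are shown because this shared start was not part of the rule. Each window below runs 5′ to 3′ over 30 bases of GRCh37, the build also called hg19, from 20 bases before the annotated GENCODE start to 10 bases into the transcript. Capitals mark a run of C and T of at least 5 bases that begins with C between 5 bases before and 5 bases after the start. Any C or T directly before that first C, as for RPS7, is in lower case. Where a window has no capitals, no such run is in it. The first group are stalk proteins and other highly expressed members with a run.
RPLP0 at chr12:120638905-120638934, minus strand: ggcacgcgcgggcgcgaggCCCTTCTCTCg
RPLP1 at chr15:69745137-69745166, plus strand: gctgcgtataggcgcgagagCCCCTTTCCT
RPLP2 at chr11:809947-809976, plus strand: gcctcttgcgtcggcgCCTTCCTTTTCCTC
RPS2 at chr16:2014818-2014847, minus strand: gcttcccagtaggtctcgttCTTCTTTTCC
RPS16 at chr19:39926580-39926609, minus strand: ccagggtggcccctagCTTTCCTTTTCCgg
RPS27 at chr1:153963218-153963247, plus strand: gcaggatttccgctttcgCTCCTTTCCggc
The next carry a run as well and are members whose changes in the knockout libraries stood out.
RPL13 at chr16:89627070-89627099, plus strand: gtgcattgcggggccgCTTCCTTTCCgctc
RPS18 at chr6:33239832-33239861, plus strand: gatatcgcgtcacttccgCTCTCTCTTCCa
RPS7 at chr2:3622830-3622859, plus strand: ttccggtttccgccctCCTCCTCgcgctgt
RPS24 at chr10:79793601-79793630, plus strand: ttggccggcgaatcgtggttCTCTTTTCCT
RPS27A at chr2:55459804-55459833, plus strand: gggcctgcgcggcgttCTTCCTTTTCgatc
RPL36A at chrX:100645979-100646008, plus strand: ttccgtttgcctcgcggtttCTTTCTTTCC
The last have no such run at the annotated start. They are a member that rose in both lines and a pair of paralogs, genes that encode near copies of a core protein.
RPL9 at chr4:39460533-39460562, minus strand: tacaagtacgtaatgacgacagacgttctt
RPS27L at chr15:63449667-63449696, minus strand: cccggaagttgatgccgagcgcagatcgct
RPL39L at chr3:186857275-186857304, minus strand: ccctagcatccggggaaatcgcggtcttag

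Such a run began within 5 bases of the annotated start in 67 of the 82 members (81.7%), 40 of the large and 27 of the small subunit. The share was 20.6% of 11973 other tested genes with an annotated start. With the run required to cover the first base as C, 59 members (72%) and 4.93% of the other genes had it. The search read the transcript strand only. A match is a description of the annotated sequence, and annotated starts can lie some bases off the starts used in these cells.

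FPKM sums ran from 360765 to 365204 in wild-type and from 380260 to 384440 in knockout Panc1, and from 379820 to 392610 in the MiaPaCa2 libraries, where the genotypes overlapped. Libraries of a group correlated across genes at r = 0.9962 to 0.998 on log2(FPKM + 1), libraries of different genotype within a line at 0.9839 to 0.994, and libraries of different lines at 0.8986 to 0.9113. Read depth is unknown, because FPKM kept no readable steps of single reads. The epithelial keratins KRT8 and KRT18 were high in all groups, with means of 372 to 649 and 310 to 487 FPKM, and KRT19 lay between 35 and 541 FPKM. EPCAM was at 2.63 and 3.49 FPKM in the Panc1 groups and at 0 in MiaPaCa2. Leukocyte and endothelial markers reached at most 0.034 FPKM in any library, and the fibroblast marker PDGFRB at most 0.83. CD3E and DCN were looked for but were not among the symbols read from the libraries. ASAP2 held 38.6, 37.5 and 34.6 FPKM in wild-type and 14.2, 14.5 and 12.7 FPKM in knockout Panc1, while in MiaPaCa2 its log2 change was -0.13 (SE 0.07, limma adjusted p = 0.197), so its mRNA does not check the MiaPaCa2 labels. In bulk RNA of this kind, fewer cells of a type and less RNA per cell cannot be told apart.

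Ribosomal protein mRNAs made up a large part of every library. The 82 members held 12.2% of the FPKM sum in wild-type Panc1 (SD 0.038, n = 3), 14.9% in knockout Panc1 (SD 0.153), 13.7% in wild-type MiaPaCa2 (SD 0.426) and 14.99% in knockout MiaPaCa2 (SD 0.369). The median member stood at 427 FPKM in wild-type Panc1 and 660 FPKM in wild-type MiaPaCa2, and the median rank of the members was at 99.55 to 99.68% of all genes in the 4 groups. Large subunit members held 6.16, 6.16 and 6.12% in wild-type and 7.45, 7.58 and 7.60% in knockout Panc1. The small subunit held 6.03, 5.96 and 6.07% and then 7.24, 7.37 and 7.37%. For both subunits the knockout libraries of Panc1 lay above all wild-type libraries. MiaPaCa2 showed smaller steps: the large subunit went from 8.61, 8.05 and 8.24% to 9.27, 8.88 and 9.15%, and the small subunit from 5.58, 5.30 and 5.40% to 6.06, 5.72 and 5.89%. There too no knockout library overlapped the wild-type libraries. As the members were chosen as a set, no test is given for these sums. Many members have processed copies in the genome, such as 74 named pseudogenes for RPSA, 62 for RPL31 and 52 for RPL36A, and the level of a single member is uncertain because the sources do not say how reads with several matching places were treated.

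**Figure D1:**
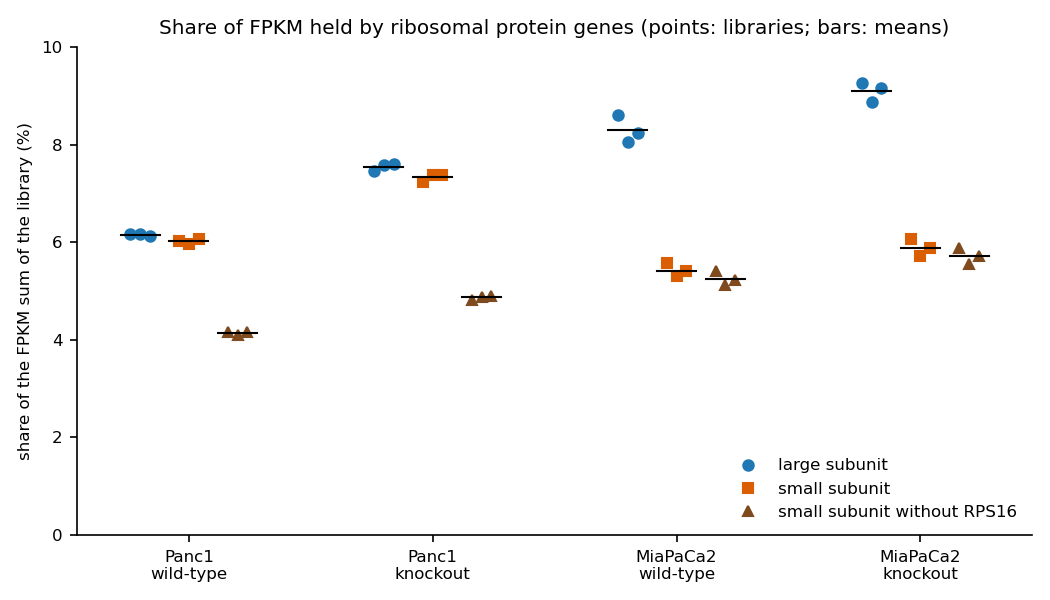
Share of each library's FPKM sum (%, vertical axis) held by large subunit, small subunit and small subunit members without RPS16, in the 4 groups; points are libraries and bars are means of 3. Knockout libraries lie above the wild-type libraries of their line for each set, and RPS16 alone lifts the small subunit of Panc1 from a mean of 4.14 to 6.02% in wild-type cells.

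The small subunit sum depended on a single gene in Panc1. RPS16, a protein of the small subunit head, held 1.86, 1.87 and 1.91% of the FPKM sum in wild-type Panc1 and 0.17 to 0.18% in wild-type MiaPaCa2. With it, the summed FPKM of the large subunit was 1.01 to 1.03 times that of the small subunit in the Panc1 libraries and 1.52 to 1.55 times in the MiaPaCa2 libraries. Without it, an alternative chosen after seeing the data, these ratios were 1.47 to 1.55 in Panc1 and 1.57 to 1.60 in MiaPaCa2. The summed FPKM of the small subunit was 28.3% higher in knockout than in wild-type Panc1 with RPS16 and 24% higher without it, against 29.3% for the large subunit. In MiaPaCa2 the mean sums were 9.69% higher for the large and 8.68% higher for the small subunit. Unlike the shares, these sums overlapped between the genotypes: the highest wild-type library held 33802 FPKM in the large and 21894 in the small subunit, and the lowest knockout library 33736 and 21719 FPKM.

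The knockout of ASAP2 in Panc1 came with higher levels of most members. Of 82 members 68 rose (background: 21.8% of 13340 tested genes), 3 fell (background 41.6%) and 11 did not pass, by limma at an adjusted p below 0.05 on log2(FPKM + 1). The large subunit had 41 increases and 1 decrease among 50 members and the small subunit 27 and 2 among 32. The median change was 0.33 on the log2 scale for the large and 0.32 for the small subunit, against -0.10 for all tested genes. The 3 wild-type and 3 knockout values of 68 members did not overlap with knockout higher (background 24.7%), and those of 3 did not overlap with knockout lower (background 45.3%). The smallest increase was 0.11 for RPS20 (adjusted p = 0.04995), and 20 of the increases were at least 0.5. These values are relative to the scaling: with libraries scaled by the median ratio over genes, the median of all genes moved from -0.10 to 0.00 and that of the members from 0.32 to 0.46. Relative to all genes the members stood at 0.425 as deposited, at 0.46 after median-ratio scaling and at 0.16 after quantile normalization. Of all calls 34.4% were higher as deposited, 52.1% after median-ratio scaling, 26.3% on the TPM scale, 48% after quantile normalization and 45.4% after a GC and length correction.

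In MiaPaCa2 fewer members were called. Here 40 members rose (background 17.8%), 2 fell (background 16.3%) and 40 did not pass. The large subunit had 25 increases and no decrease, and the small subunit 15 increases and 2 decreases. Median changes were 0.16 and 0.15, against 0.01 for all genes. Without overlap between the groups, 38 members were higher (background 23%) and 3 lower (background 20.5%). Called increases ran from 0.14 for RPL24 to 0.43 for RPS27L, so no member reached 0.5. With the MiaPaCa2 libraries fitted alone, which leaves fewer libraries to estimate the spread, 16 large and 7 small subunit members were called higher.

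**Figure D2:**
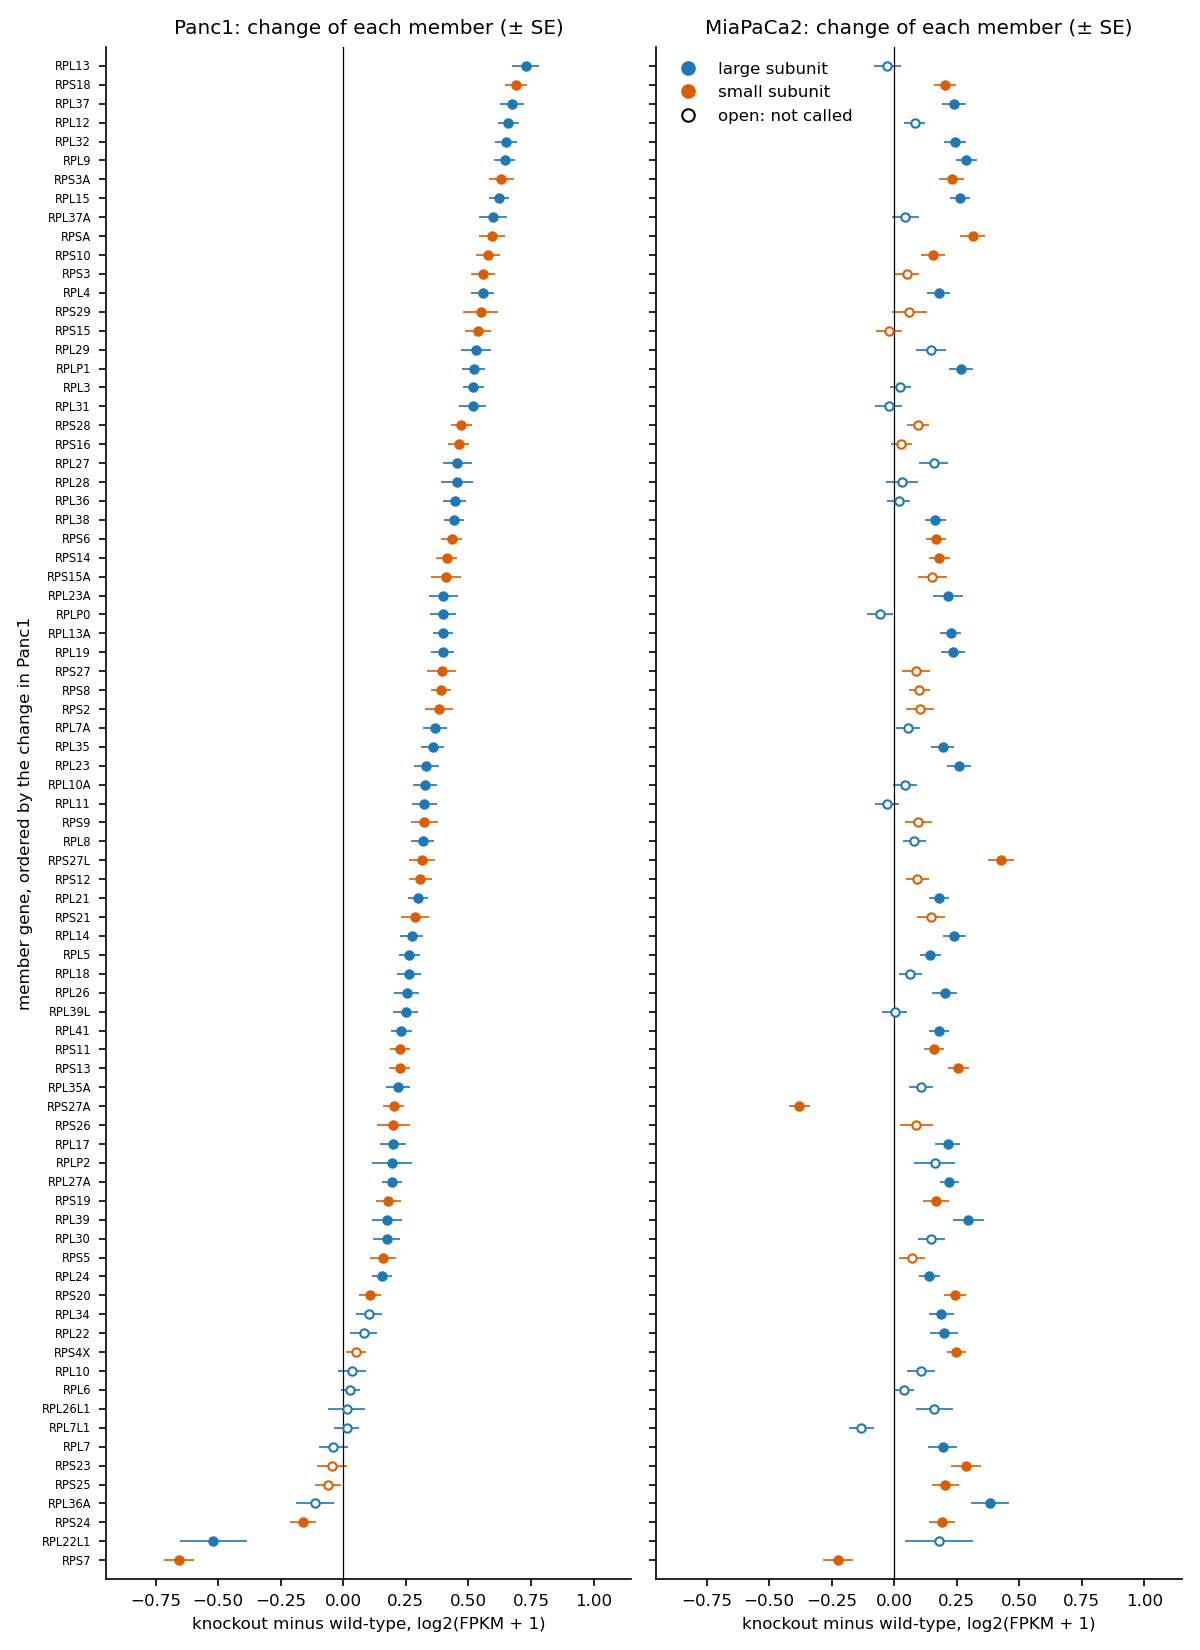
Change of single members between knockout and wild-type libraries on log2(FPKM + 1) (horizontal axis, points with SE from limma), in Panc1 on the left and MiaPaCa2 on the right, with genes in the order of the Panc1 change; open points were not called. Of the members drawn, Panc1 changes run from -0.66 for RPS7 to 0.73 for RPL13, and those of MiaPaCa2 from -0.38 for RPS27A to 0.43 for RPS27L.

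Set side by side, 32 members rose in both lines (background 5%), RPS7 alone fell in both (background 6.34%), and RPS24 and RPS27A had opposite calls. Called higher in Panc1 without a call in MiaPaCa2 were 35 members, and 7 showed the reverse. The share of all genes was not taken for these counts or for the opposite calls, so they are a description only. The change in Panc1 was larger than that in MiaPaCa2 for 44 members by the test of the difference (background 20%) and smaller for 8 (background 37.4%), with a median difference of 0.21. RPL39L is among the 44 through its Panc1 change alone, since it was at or near 0 in MiaPaCa2. Of all calls in this test 34.8% were higher as deposited, 51.8% after median-ratio scaling, 47.8% after quantile normalization and 46.2% after the GC and length correction. Across the 82 members the changes of the lines had r = 0.028 and rho = -0.112, a description over genes, which share libraries and are not independent.

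The 4 members of the ribosomal stalk were called higher in Panc1 (background 21.8%), RPLP2 only just. RPLP0 anchors it, RPLP1 and RPLP2 form its arms, and RPL12 is part of its base. RPLP1, the highest large subunit member over the 12 libraries, held 1427, 1443 and 1492 FPKM in wild-type and 2052, 2073 and 2131 FPKM in knockout Panc1 (log2 change 0.52, SE 0.05, adjusted p = 1.6e-06). In MiaPaCa2 it held 1464, 1323 and 1301 and then 1649, 1581 and 1683 FPKM (0.27, adjusted p = 0.00113). The groups did not overlap in either line. RPLP0 went from 1425, 1421 and 1460 to 1794, 1921 and 1969 FPKM in Panc1 (0.40, adjusted p = 2.7e-05). Its MiaPaCa2 libraries overlapped, at 1669, 1498 and 1517 against 1433, 1523 and 1549 FPKM. RPL12 gave the largest change of the 4, from 713, 704 and 691 to 1111, 1118 and 1101 FPKM in Panc1 (0.66, adjusted p = 8.5e-08), while MiaPaCa2 stood at 1217, 1108 and 1117 against 1246, 1172 and 1225 FPKM. RPLP2 was close to the threshold: 1653, 1641 and 1691 FPKM in wild-type and 1788, 1954 and 1970 FPKM in knockout Panc1 (0.20, adjusted p = 0.0498). It did not pass on the TPM scale (0.12, adjusted p = 0.159), without a filter (adjusted p = 0.12), after the GC and length correction (0.12, adjusted p = 0.15), or without any 1 of the wild-type replicates or knockout replicates 2 and 3 (adjusted p = 0.0781 to 0.141), and it was called lower after quantile normalization (-0.32, adjusted p = 0.00324). It also did not pass at a pseudocount of 0.1 (adjusted p = 0.0579) or without a trend in the fit (adjusted p = 0.0609). The same held with an equal sum over the other genes (adjusted p = 0.0695) and without knockout replicate 1 of MiaPaCa2 (adjusted p = 0.0584).

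Members that bind the 5S rRNA or line the exit tunnel also rose in Panc1, as did most large subunit members. RPL5 and RPL11, which bind the 5S rRNA and, when unassembled, the p53 regulator MDM2, rose in Panc1 by 0.26 and 0.32, and their MiaPaCa2 changes were 0.14, called, and -0.03, not called. RPL11 held 757, 784 and 739 FPKM in wild-type and 939, 953 and 962 FPKM in knockout Panc1. The tunnel or its mouth is lined by 8 members, RPL4, RPL17, RPL39, RPL23A, RPL35, RPL26, RPL31 and RPL19. All 8 rose in Panc1 (background 21.8%) and 7 in MiaPaCa2 (background 17.8%), with medians of 0.38 and 0.21. Of 32 other large subunit members 26 rose in Panc1 and 16 in MiaPaCa2, with medians of 0.33 and 0.15. RPL31, at the tunnel mouth, went from 233, 232 and 234 to 350, 325 and 327 FPKM in Panc1 (0.52, adjusted p = 4.7e-06). It was the tunnel member that was not called in MiaPaCa2, at 709, 619 and 623 against 669, 634 and 616 FPKM. RPL39, a small protein inside the tunnel, held 325, 294 and 327 FPKM in wild-type and 341, 362 and 365 FPKM in knockout Panc1 (0.17, adjusted p = 0.0253). It did not pass on the TPM scale (0.10, adjusted p = 0.118), without a filter (adjusted p = 0.055) or after quantile normalization (0.01, adjusted p = 0.801). Nor did it pass without wild-type replicate 2 (0.12, adjusted p = 0.119) or without knockout replicate 2 or 3 (adjusted p = 0.0747 and 0.0813). Its MiaPaCa2 libraries went from 424, 369 and 369 to 495, 455 and 474 FPKM (0.30, adjusted p = 0.00307).

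Among the remaining large subunit members, RPL13 and RPL37 were among those with large increases in Panc1. RPL13 was at 86.2, 79 and 87.4 FPKM in wild-type and 129.8, 143 and 148 FPKM in knockout Panc1 (0.73, adjusted p = 2.7e-07). It stayed far below MiaPaCa2, where the 6 libraries lay between 332 and 358 FPKM without a call between the genotypes. RPL37 went from 166, 162 and 169.5 to 263, 269 and 262 FPKM in Panc1 (0.67, adjusted p = 2e-07) and from 280.5, 254 and 253 to 325, 295 and 309 FPKM in MiaPaCa2 (0.24, adjusted p = 0.00237). RPL9 also rose in both lines, from 190.3, 190.5 and 184 to 300.2, 295 and 290 FPKM in Panc1 (0.64) and from 368, 333 and 343 to 436, 408 and 431 FPKM in MiaPaCa2 (0.29). RPL36A was called in MiaPaCa2 and not in Panc1. It held 262, 268 and 226 FPKM in wild-type and 250.2, 231 and 216 FPKM in knockout Panc1, with overlap (-0.11, adjusted p = 0.211), and 387, 333 and 347 against 490.4, 456 and 444 FPKM in MiaPaCa2 (0.38, adjusted p = 0.00241). In Panc1 it was called lower on the TPM scale (-0.19, adjusted p = 0.0428) and after quantile normalization (-0.22, adjusted p = 0.0163). Without wild-type replicate 3 of Panc1 it was also called lower there (-0.19, adjusted p = 0.0435). The difference between its changes passed (-0.50, SE 0.11, adjusted p = 0.002).

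The head of the small subunit is the upper part that grips the mRNA and contacts the tRNAs. Its members rose in 13 of 14 cases in Panc1 (background 21.8%) and in 5 of 14 in MiaPaCa2 (background 17.8%). Their medians were 0.38 and 0.09. Of all 82 members 82.9% rose in Panc1 and 48.8% in MiaPaCa2. RPS25 was the head member not called in Panc1, at -0.06. RPS18, at the contact to the large subunit, went from 168, 162 and 158 to 255, 261.5 and 270.5 FPKM in Panc1 (0.69, SE 0.04, adjusted p = 8.2e-08) and from 323, 289 and 305 to 351, 348 and 357 FPKM in MiaPaCa2 (0.20, adjusted p = 0.00361). RPS16 rose in Panc1 from 6754, 6746 and 6987 to 9206, 9521 and 9486 FPKM (0.46, adjusted p = 1.6e-06). In MiaPaCa2 the same gene held 667, 674 and 682 against 715, 647 and 703 FPKM, with overlap. The Panc1 change of RPS16 was 0.00 after quantile normalization, where the highest ranks of all libraries are given equal values by construction. RPS27A, made as a fusion with ubiquitin, rose in Panc1 from 247, 262 and 256 to 298, 290.4 and 292 FPKM (0.20, adjusted p = 0.00112) and fell in MiaPaCa2 from 392, 365 and 387 to 301, 279 and 300 FPKM (-0.38, adjusted p = 3.8e-05). In both lines its groups did not overlap, so the direction was opposite, and the difference was 0.58 (SE 0.06, adjusted p = 7.5e-06).

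In the body and platform of the small subunit 13 of 17 members rose and 2 fell in Panc1 (backgrounds 21.8% and 41.6%). In MiaPaCa2 9 rose and 1 fell (backgrounds 17.8% and 16.3%). RPS2, which lies at the mRNA entry, went from 1447, 1451 and 1541 to 1841, 1979 and 1964 FPKM in Panc1 (0.38, adjusted p = 7.1e-05) and held 1466, 1294 and 1288 against 1475, 1388 and 1485 FPKM in MiaPaCa2. RPS27, a zinc finger protein, had Panc1 libraries at 711, 792 and 757 and then 983, 962.5 and 1019 FPKM (0.39, adjusted p = 6.4e-05). After quantile normalization RPLP0, RPS2 and RPS27 did not pass in Panc1 (0.01, 0.02 and 0.14; adjusted p = 0.853, 0.809 and 0.113). RPSA, also known as a laminin receptor precursor, rose in both lines, from 501.5, 509 and 512 to 738, 771.5 and 789 FPKM in Panc1 (0.59) and from 409, 391 and 393.5 to 512, 453 and 522 FPKM in MiaPaCa2 (0.31, adjusted p = 5.9e-04). RPS6, the substrate of the S6 kinases, rose by 0.43 in Panc1, from 382, 379 and 366 to 496, 512 and 514 FPKM. In MiaPaCa2 it went from 1143, 1050 and 1076 to 1258, 1182 and 1230 FPKM (0.17, adjusted p = 0.00814). It did not pass there with that line fitted alone (adjusted p = 0.0941) or after quantile normalization (adjusted p = 0.131).

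RPS7 and RPS24 were the small subunit members that fell in Panc1. RPS7, which takes part in processing of the small subunit rRNA, dropped from 386, 360 and 372 to 235, 233 and 239 FPKM in Panc1 (-0.66, SE 0.06, adjusted p = 1.5e-06). It also fell in MiaPaCa2, from 959, 887 and 880.5 to 829, 699 and 812 FPKM (-0.22, adjusted p = 0.0125), a call lost with MiaPaCa2 fitted alone (adjusted p = 0.1). No wild-type and knockout values overlapped in either line. RPS24 had 780, 748 and 760 against 730.2, 675 and 641 FPKM in Panc1 (-0.16, adjusted p = 0.0156) and 758, 714 and 755 against 890.2, 808 and 843 FPKM in MiaPaCa2 (0.19, adjusted p = 0.0137). The Panc1 decrease of RPS24 was not called after median-ratio scaling (-0.02, adjusted p = 0.658), without wild-type replicate 1 (-0.15, adjusted p = 0.0588) or without knockout replicate 3 (-0.12, adjusted p = 0.0787), and the sign turned after the GC and length correction (0.06, adjusted p = 0.186). Its MiaPaCa2 increase did not pass with the line fitted alone (adjusted p = 0.0588), after quantile normalization (adjusted p = 0.0518), without wild-type replicate 2 (adjusted p = 0.0587) or without knockout replicate 1 (adjusted p = 0.059).

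**Figure D3:**
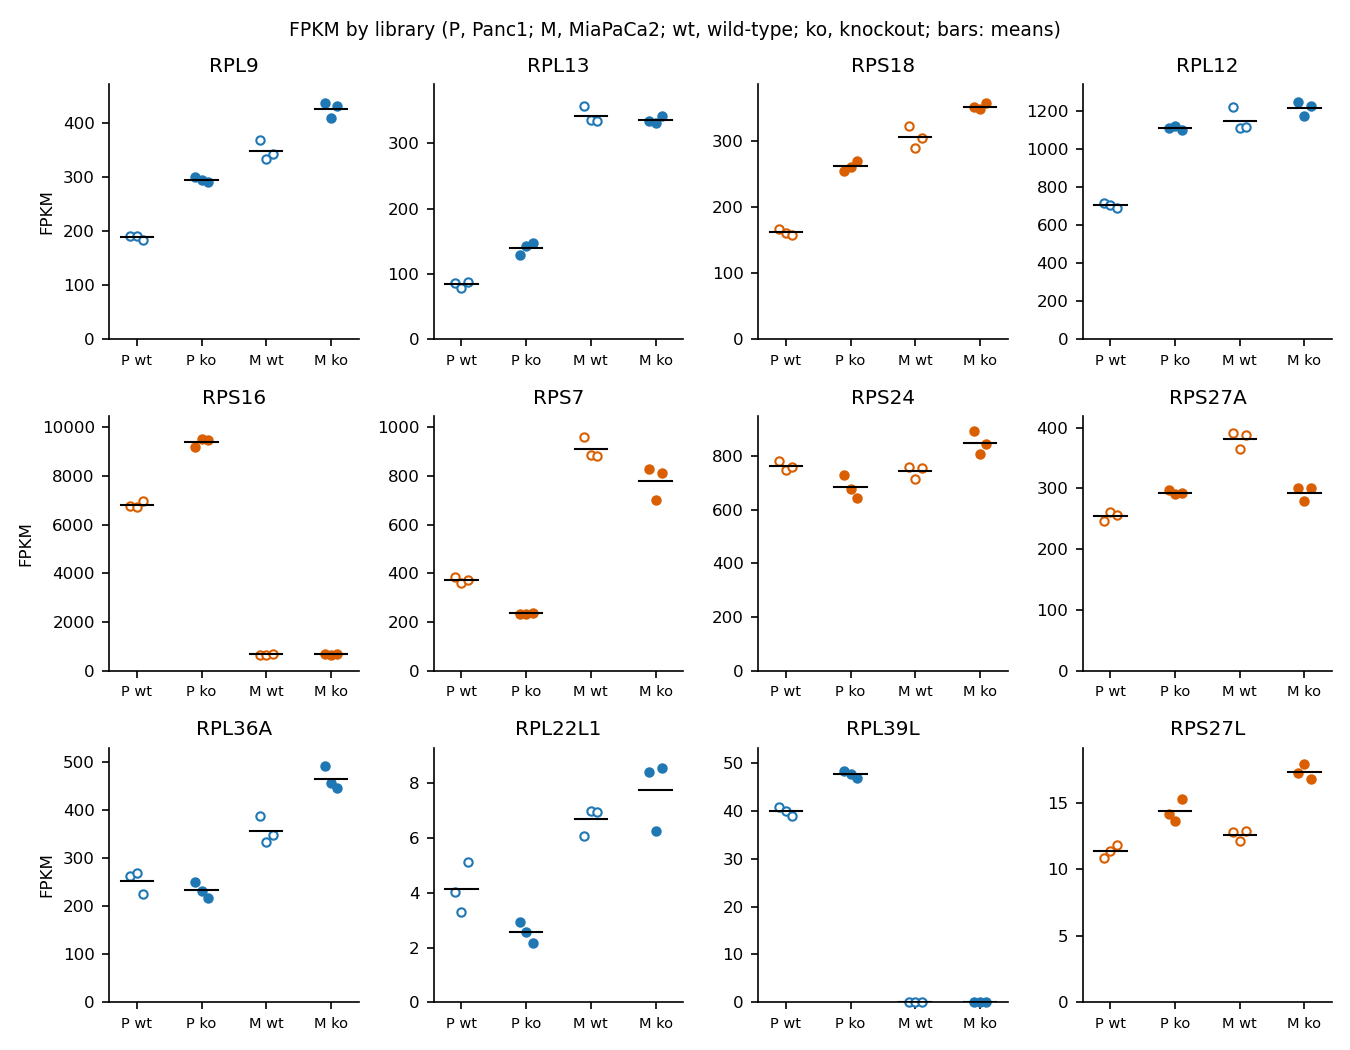
FPKM (vertical axes, from 0) of 12 members in each library of the 4 groups, with open points for wild-type, filled points for knockout and bars for means of 3; blue is the large and orange the small subunit. RPL13 of knockout Panc1 (129.8 to 148 FPKM) stays below the MiaPaCa2 level, RPS7 is lower in the knockout libraries of both lines, and RPL39L is at or near 0 in MiaPaCa2.

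The 5 paralogs of core proteins gave 2 increases and 1 decrease in Panc1 (backgrounds 21.8% and 41.6%) and 1 increase in MiaPaCa2 (background 17.8%). RPL22L1, the paralog of RPL22, was the lowest member and fell in Panc1, with 4.03, 3.28 and 5.12 FPKM in wild-type and 2.95, 2.56 and 2.18 FPKM in knockout libraries (-0.52, SE 0.13, adjusted p = 0.00483). This call was lost after the GC and length correction (-0.17, adjusted p = 0.293), and the MiaPaCa2 libraries overlapped at 6.07, 6.97 and 6.95 against 8.41, 6.24 and 8.53 FPKM. Its parent RPL22 held 101, 108 and 96.5 against 114, 104 and 105.5 FPKM in Panc1 (0.08, adjusted p = 0.223) and rose in MiaPaCa2 by 0.20 (adjusted p = 0.016; 0.0737 without wild-type replicate 2 and 0.0682 without knockout replicate 1). In Panc1 RPL22 was called higher after median-ratio scaling (0.22, adjusted p = 0.00226) and after the GC and length correction (0.19, adjusted p = 0.00299). RPS27L, known as a p53 target, rose in both lines. It went from 10.9, 11.4 and 11.8 to 14.2, 13.6 and 15.3 FPKM in Panc1 (0.31, adjusted p = 2e-04) and from 12.8, 12.2 and 12.9 to 17.3, 17.9 and 16.8 FPKM in MiaPaCa2 (0.43, adjusted p = 7.7e-05), where it had the largest change of all members. RPL26L1 (18.5, 18.3 and 16.9 against 18.1, 16.4 and 19.8 FPKM in Panc1) and RPL7L1 (47.4, 46.5 and 49.1 against 50.5, 47.1 and 46.7 FPKM) were not called in either line. RPL26L1 was called higher in MiaPaCa2 after quantile normalization (0.21, adjusted p = 0.0348) and without knockout replicate 2 (0.23, adjusted p = 0.0253). RPL7L1 was close to the threshold in MiaPaCa2, where its groups did not overlap at 68.9, 71.5 and 70.1 against 62.7, 60.6 and 68.7 FPKM (-0.13, adjusted p = 0.0567). It was called lower there on the TPM scale (adjusted p = 0.0462), after median-ratio scaling (adjusted p = 0.041), after the GC and length correction (adjusted p = 0.0122) and without knockout replicate 1 of Panc1 (adjusted p = 0.0463) or knockout replicate 3 of MiaPaCa2 (adjusted p = 0.0109). In Panc1 it was called higher after median-ratio scaling (0.15, adjusted p = 0.0187) and after the GC and length correction (0.15, adjusted p = 0.0129). Their parents were much higher, with RPL26 at a mean of 419 and RPL7 at 506 FPKM in wild-type Panc1. RPL26 rose in both lines, by 0.25 and 0.20, calls that were lost after quantile normalization (adjusted p = 0.125 and 0.184) and, in MiaPaCa2, with that line fitted alone (adjusted p = 0.063). RPL7 was not called in Panc1 (-0.04, adjusted p = 0.566) and was called higher there after the GC and length correction (0.19, adjusted p = 0.00555) but lower after quantile normalization (-0.31, adjusted p = 2.05e-04). In MiaPaCa2 RPL7 was called at 0.19 (adjusted p = 0.0201), but not with that line fitted alone (adjusted p = 0.106), after quantile normalization (adjusted p = 0.182), or without wild-type replicate 2 or 3 or knockout replicate 1 or 3 (adjusted p = 0.0554 to 0.0865).

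RPL39L, the paralog of RPL39 known for its expression in testis and in some tumours, was well expressed in Panc1 and near 0 in MiaPaCa2. It held 40.8, 40 and 38.9 FPKM in wild-type and 48.2, 47.6 and 46.9 FPKM in knockout Panc1 (0.25, adjusted p = 7.9e-04; not called at a pseudocount of 0.1, adjusted p = 0.296). In MiaPaCa2 4 of the 6 libraries were at 0 or did not list it, and the other two held 0.061 and 0.064 FPKM. No fold is given against a group at or near 0. Its 3 tested protein-coding neighbours within 0.5 Mb did not share this pattern, with wild-type differences between lines of -0.98 to -0.09.

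The wild-type lines themselves differed in most members. In Panc1 61 of 82 members were lower than in MiaPaCa2 (background 40.9%) and 10 were higher (background 41.8%), with a median difference of -0.55 against 0.00 for all genes. At least 2-fold differences were found for 15 members lower in Panc1 (background 10.2%) and 2 higher, RPS16 and RPL39L (background 14.7%). In all 8 tunnel members Panc1 was lower, with a median of -1.07. RPL13 had the largest difference of this direction, at 86.2, 79 and 87.4 FPKM in Panc1 and 358, 335 and 334 FPKM in MiaPaCa2, which made MiaPaCa2 4.07 times higher (log2 difference -2.01, SE 0.05, adjusted p = 1.1e-12). RPS6 followed at -1.53 and RPL31 at -1.47. Higher in Panc1, apart from RPS16 and RPL39L, was RPLP2, at 1653, 1641 and 1691 against 1086, 871.5 and 1077 FPKM (0.72, adjusted p = 2.2e-06). Summed over the large subunit, wild-type Panc1 stood at 0.693 times the level of wild-type MiaPaCa2. The small subunit sum of Panc1 was 1.04 times that of MiaPaCa2 with RPS16 and 0.738 times without it.

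**Figure D4:**
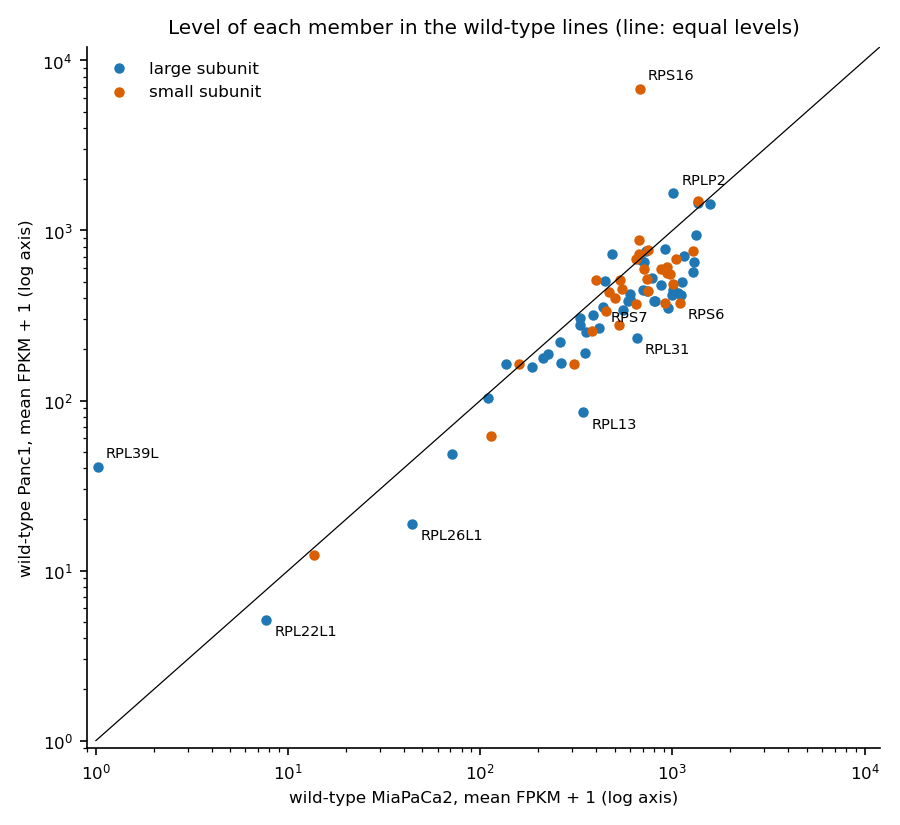
Mean FPKM + 1 of single members in wild-type MiaPaCa2 (horizontal, log axis) and wild-type Panc1 (vertical, log axis), n = 3 libraries per line; the line marks equal levels. Of the members drawn 15 lie above the line, RPS16 and RPL39L farthest from it, and RPL13 lies farthest below among the well expressed members.

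RPS16 stood out from all other members in Panc1. Its mean of 6829 FPKM in the wild-type line (SD 137, n = 3) was 10.1 times that of MiaPaCa2 at 674 FPKM (SD 7.54; log2 difference 3.34, SE 0.04, adjusted p = 1.2e-15), and no library of the lines overlapped. The gene lies on the minus strand of chromosome 19, 39923777 to 39926589 in GRCh37. Its neighbours were looked at after these values had been seen. All 19 tested protein-coding genes that reach within 0.5 Mb of it were also called higher in wild-type Panc1 (background 41.8%). Their median was 3.29, with a range of 0.38 to 5.60. They included DLL3, a Notch ligand, at a mean of 91.1 against 0.908 FPKM, PAF1, a subunit of the elongation complex of that name, at 623 against 24.2 FPKM, SUPT5H, a transcription elongation factor, at 467 against 47 FPKM, and FBL, the rRNA methyltransferase fibrillarin, at 1652 against 140 FPKM. Between knockout and wild-type Panc1 the same 19 genes had a median change of 0.13, with 9 called higher and 4 lower (backgrounds 21.8% and 41.6%). DNA was not measured in these samples, and the number of copies of this region was not tested.

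**Figure D5:**
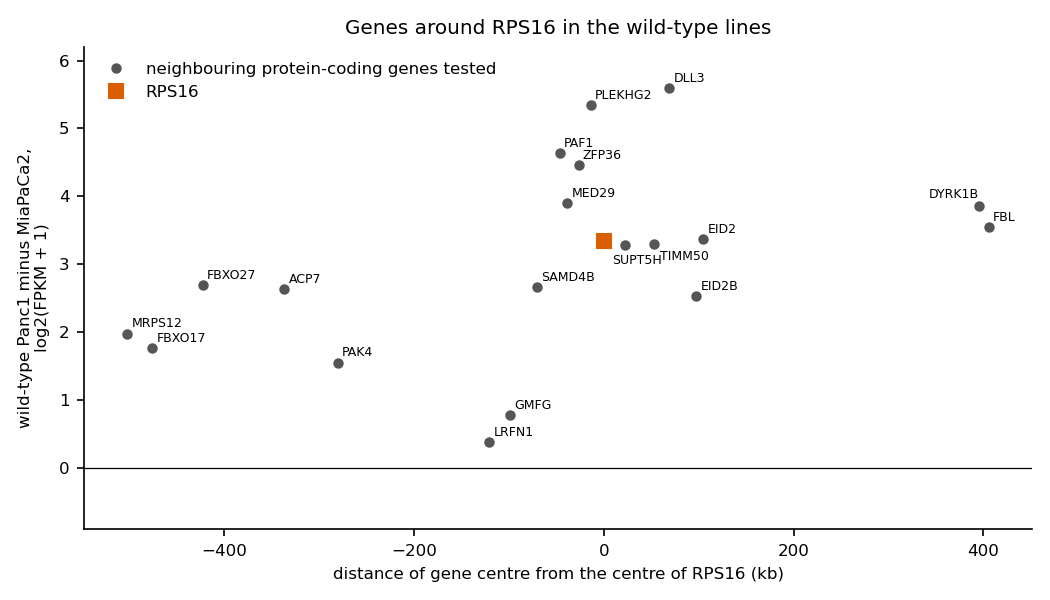
Difference between wild-type Panc1 and wild-type MiaPaCa2 on log2(FPKM + 1) (vertical axis) for RPS16 and the 19 tested protein-coding genes that reach within 0.5 Mb of it, against the distance of gene centres (kb, horizontal axis). All points lie above 0, from 0.38 for LRFN1 to 5.60 for DLL3.

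The same look at neighbours was taken for other members that stood apart, again after their values were known. RPS7 lies on the short arm of chromosome 2 (3622850 to 3628510), as ASAP2 does. For it the window was 2 Mb, wider than the 0.5 Mb of the other members. Its 5 tested protein-coding neighbours had a median change of -0.69 in Panc1, with 5 called lower (background 41.6%). In MiaPaCa2 their median was -0.41, with 4 called lower (background 16.3%). Among them PXDN was at 0.00233 FPKM in both MiaPaCa2 groups, so no change could show there. RPS27A, also on that arm (55459039 to 55462989), had 6 such neighbours within 0.5 Mb with a median of -0.54 in MiaPaCa2, 5 of them lower and 1 higher (backgrounds 16.3% and 17.8%), and of -0.16 in Panc1, 2 of them lower, against 41.6% of all genes. So RPS7 in both lines and RPS27A in MiaPaCa2 moved the same way as the genes beside them, and RPS27A in Panc1 did not. RPL13 on chromosome 16 (89627085 to 89630950) had 19 neighbours within 0.5 Mb. Of these 16 were lower and 2 higher in wild-type Panc1 than in MiaPaCa2 (median -0.73, backgrounds 40.9% and 41.8%). Their median change in knockout Panc1 was -0.05. The part of such regional shifts in the values of these members was not tested.

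Most members rose in Panc1 both with and without the annotated pyrimidine start. The 67 members with a run had median changes of 0.32 in Panc1 and 0.15 in MiaPaCa2, and 55 and 32 of them were called higher, against backgrounds of 21.8% and 17.8%. The 15 without a run had medians of 0.39 and 0.18, and 13 and 8 were called higher. Among other tested genes, 2462 with such a run had a median of -0.09 in Panc1 and 9511 without it -0.11. RPL9, shown above without a run, was among the members that rose in both lines.

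Genes of other parts of the translation machinery were set beside the members. The shares of all tested genes to read their counts against are 21.8% higher and 41.6% lower in Panc1, with a median of -0.10, and 17.8% higher and 16.3% lower in MiaPaCa2, with a median of 0.01. Of 61 tested ribosome biogenesis factors, proteins that build the subunits without staying in them, 5 rose and 35 fell in Panc1 (median -0.23), and 2 rose and 12 fell in MiaPaCa2 (median -0.04), where the decreases were near the background. NMD3, the export adaptor of the large subunit, fell from 39.2 ± 1.09 to 16.8 ± 1.28 FPKM (SD, n = 3) in Panc1 (-1.18, limma adjusted p = 5.5e-08), and MPHOSPH10, a part of the small subunit processome, fell in both lines (-0.81 and -0.58). PNO1, another assembly factor of the small subunit, fell in MiaPaCa2 from 25.8 ± 1.39 to 17.4 ± 0.976 FPKM (-0.54). MPHOSPH10 and PNO1 lie on chromosome 2. Mitochondrial ribosomal proteins, 78 tested genes of the separate ribosome of that organelle, had 13 increases and 33 decreases in Panc1 (median -0.13) and 5 and 11 in MiaPaCa2 (median -0.04), so that the share of decreases was near the background in Panc1. MRPL32, on chromosome 7, fell in Panc1 from 29.6 ± 0.563 to 13.7 ± 1.53 FPKM. In MiaPaCa2 MRPL19 fell by 0.47 and MRPL52 rose by 0.44.

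Translation initiation and elongation factors, many of whose mRNAs also carry a TOP start, had a larger share of increases in Panc1 than all genes. Of 36 tested, 15 rose (background 21.8%) and 13 fell (background 41.6%) in Panc1, with a median of 0.05 against -0.10 for all genes, and their mean summed FPKM went from 8377 to 9884. In MiaPaCa2 6 rose and 8 fell (median -0.05), against backgrounds of 17.8% and 16.3%, and the sums were 9058 and 9445 FPKM. EIF1AX, which helps to find the start codon, fell in Panc1 from 14.3 ± 0.553 to 7.11 ± 0.289 FPKM (-0.92), and EIF5B, which joins the subunits, from 21 ± 2.96 to 12 ± 1.04 FPKM (-0.75). EIF1 and EIF4A2 rose in MiaPaCa2 by 0.37 and 0.31. Of 7 genes fused to or bound with ribosomal proteins, 4 were higher and 2 lower in Panc1, and 4 were higher and 1 lower in MiaPaCa2. TPT1, a TOP mRNA of another abundant protein, rose in both lines (0.39 and 0.31). SERBP1, which binds idle ribosomes, fell in MiaPaCa2 from 68.9 ± 2.45 to 58.1 ± 2.24 FPKM (-0.24).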

How the data were processed

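Total RNA of 12 libraries was sequenced on a BGISEQ-500, per the labels' protocols. The authors, per the design text and the submitters' processing notes, trimmed adaptors, removed reads of low quality or low complexity, aligned the rest to hg19 with TopHat2 2.0.14 and computed FPKM with STAR 2.5.2a. The sources used here do not give library preparation, strand or read number. Deposited was 1 table per library with an FPKM for each gene symbol, and a symbol absent from a library was taken as 0.

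Values were fitted on log2(FPKM + 1), which understates changes of low genes, with limma 3.58.1 (R 4.3.3), using 1 mean per group over all 12 libraries (8 residual degrees of freedom) and a mean-variance trend. Tests were two-sided, with Benjamini-Hochberg adjustment across 13340 genes that averaged 1 FPKM or more in a line. Tested on simulated data for the Panc1 comparison over 13340 genes, it recovered 100 of 100 changes of 1 and 42 of 100 of 0.3 on the log2 scale, with 3 false calls. Far fewer genes changed in that simulation than were called in the Panc1 data, where 2910 were higher and 5556 lower. Its recovery and false calls therefore need not hold for the fit of these data. The fit reported used all 12 libraries, with symbols absent from a library set to 0. Of 22650 symbols 15286 were listed in all 12 libraries. Levels are given per library in the order of the replicate numbers, which name the libraries.

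Named are the 3 highest members per subunit, the 5 largest called changes without overlap each way and line, the 3 largest differences each way between the changes and between the wild-type lines, paralogs with their parents, the candidates nearest the 1 FPKM limit, and the 2 largest called changes per partner list and line. RPL5, RPL11, RPL4, RPL17, RPL19, RPL23, RPL23A, RPL35, RPS25, RPS20 and RPL24 and the neighbouring genes are named outside this rule, after their values were seen. The members and lists, and the grouping by place in the ribosome, were chosen with earlier results of these data known; some members and genes are not reported here, though counts, sums and medians include them. Positions and starts came from GENCODE release 44 mapped to GRCh37. The alternatives were a pseudocount of 0.1, no filter or a filter of 5 FPKM, the TPM scale, median-ratio scaling, an equal sum over the other genes, quantile normalization, a loess correction for GC content and length (12055 genes, 82 of 82 members), no trend, each line alone, the replicate number as a block, and each library left out in turn; the small subunit sum without RPS16 was added after the data were seen.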

Additional observations from a re-analysis of the deposited data

Results flagged for a closer look

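For the members below the change between knockout and wild-type libraries differed between the lines by the test of the difference itself (limma, adjusted over 13340 genes). They are named members, some of them named for a large change or difference, so their number is not read against the share over all genes. Values here are Panc1 changes less MiaPaCa2 changes on log2(FPKM + 1). Higher in Panc1 were RPL13 at 0.76, RPL12 at 0.58, RPS27A at 0.58, RPL31 at 0.54, RPS18 at 0.48, RPLP0 at 0.46, RPL37 at 0.43, RPS16 at 0.43 and RPL9 at 0.36. Smaller differences of this direction were those of RPS27 at 0.31, RPS2 at 0.28, RPSA at 0.28, RPS6 at 0.27 and RPLP1 at 0.25. RPL39L is left out because it was at or near 0 in MiaPaCa2. Lower in Panc1 than in MiaPaCa2 were RPL22L1 at -0.70, RPL36A at -0.50, RPS7 at -0.43, RPS24 at -0.35 and RPL7 at -0.23. RPS7 fell in both lines and RPS24 had opposite calls. As deposited, 44 of the 82 members had a called higher and 8 a called lower difference (backgrounds 20% and 37.4%). These counts were 60 and 4 after median-ratio scaling, 54 and 2 after the GC and length correction, and 32 and 19 after quantile normalization. At most 2 of the lower differences named here can thus have kept their call after the GC and length correction.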

How the results depend on the processing

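The median change of the members kept its sign in each comparison under all alternatives run, while several counts moved. Of all Panc1 calls 34.4% were higher as deposited, 26.3% on the TPM scale and 52.1% after median-ratio scaling. After quantile normalization 48% were higher, and after the GC and length correction 45.4%. In MiaPaCa2 this balance was 50.2 to 52.2% in these settings, and between the wild-type lines 44.9 to 55.4%. The share of all genes called is given for the reported fit only. On the TPM scale the Panc1 medians were 0.25 for both subunits, with 2 large and 4 small subunit members lower, 1 large subunit member was lower in MiaPaCa2, the median difference was 0.13 and the wild-type median -0.45. Median-ratio scaling gave Panc1 medians of 0.46 and 0.45 with 1 small subunit member lower, 1 large subunit member lower in MiaPaCa2, 4 members with a lower difference and a median difference of 0.35. With an equal sum over the other genes the median difference was 0.15 and the wild-type median -0.48. Quantile normalization gave Panc1 medians of 0.16 and 0.14, 6 large and 5 small subunit members lower, 16 small subunit members higher, in MiaPaCa2 9 small subunit members higher with a median of 0.0854, a median difference of 0.0845 with 19 lower, and a wild-type median of -0.29 with 19 higher. The GC and length correction left 0 large and 1 small subunit members lower in Panc1 with a small subunit median of 0.40, called 1 large subunit member lower in MiaPaCa2, and gave a median difference of 0.30 with 2 lower and a wild-type median of -0.61. With each line fitted alone 16 large and 7 small subunit members were higher and 1 small subunit member was lower in MiaPaCa2. Without RPS16 the small subunit sum changed by 24% in Panc1 and by -26.2% between the wild-type lines, the reverse sign of 3.89% with it. In addition, 3 single changes turned: RPL7 in Panc1 to 0.19 and RPS24 in Panc1 to 0.0631 after the GC and length correction, and RPLP2 in Panc1 to -0.32 after quantile normalization. The cause of these shifts was not tested.

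With single libraries left out, MiaPaCa2 members called higher ran from 18 to 33 for the large and from 12 to 22 for the small subunit. With all libraries they were 25 and 15 (background 17.8%). In Panc1 the counts called higher ran from 39 to 41 and from 23 to 27, against 41 and 27 with all libraries (background 21.8%). Counts of members called lower ran from 1 to 2 for either subunit in Panc1 (2 large without wild-type replicate 3; 1 small without wild-type replicate 1 or knockout replicate 3) and from 0 to 1 for the large subunit in MiaPaCa2, and the median difference ran from 0.15, without knockout replicate 2 of MiaPaCa2, to 0.24. A group of 2 is then assumed to vary like the others. The reported fit did not pair libraries by replicate number. Same-numbered deviations correlated at 0.017, 0.034 and 0.078 in Panc1 and at -0.127, -0.165 and -0.002 in MiaPaCa2. Differently numbered ones ran from -0.097 to 0.058 in Panc1 and from -0.192 to 0.254 in MiaPaCa2. With so few libraries these values cannot show whether any of them share a culture or run. With the replicate block 42 large and 27 small subunit members were higher in Panc1 and 27 and 17 in MiaPaCa2. The difference of changes could not be fitted with each line alone. FPKM gives no read depth, so the precision of single low values such as those of RPL22L1 rests on 3 libraries.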

Other observations

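Some properties of the members were set beside their changes as a description over 82 genes that share libraries. The change in Panc1 went with the GC content of the transcript at r = 0.377 (rho = 0.361) and the change in MiaPaCa2 at r = -0.292 (rho = -0.416). Against the mean level the values were r = 0.299 and r = -0.115, against transcript length r = -0.059 and r = -0.020, and against the number of named pseudogenes r = 0.059 and r = 0.113. After the GC and length correction the median of all members was 0.39 in Panc1 and 0.14 in MiaPaCa2.

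The members of single chromosomes also differed among themselves. The 12 members on chromosome 19 had a median change of 0.42 in Panc1 and 0.07 in MiaPaCa2. The 4 members on the X chromosome, RPL10, RPL36A, RPL39 and RPS4X, had medians of 0.04 and 0.27. RPS4X, a core protein of the small subunit body, held 576, 553.5 and 563 FPKM in wild-type and 565, 603 and 586 FPKM in knockout Panc1, with overlap, and rose in MiaPaCa2 from 934, 934 and 946 to 1144, 1071 and 1129 FPKM. These members were named after their values were seen, and chromosome dosage was not tested.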
